A study of Mus musculus with 24 samples.

Results

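Pleuroperitoneal folds of mouse embryos were compared between E12.5 and E11.5, days of gestation a day apart, over 19351 genes. All arrays labelled with these stages were used, 16 of the 24 arrays of the series: 8 from E12.5 and 8 from E11.5. Both groups are C57BL/6J embryos of timed pregnancies with no mutation or treatment named, and both were cut by laser capture from 10 μm transverse cryosections at mid-thorax. RNA from the captured tissue was amplified, and each sample was hybridised to its own Affymetrix Mouse Gene 1.0 ST array. The other 8 arrays are E16.5 diaphragm and enter here only as a further level beside some genes. The labels do not say which embryo a sample came from or whether samples were pooled, so the p-values measure the spread between these samples, which may be technical. The design text gives the aim as finding genes and pathways of important stages in the making of the diaphragm.

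The pleuroperitoneal folds are paired ridges of mesenchyme, covered by mesothelium, that grow across the body wall and become the connective tissue and central tendon of the diaphragm. Myoblasts migrate into them from the cervical somites, where Pax3 sets the progenitors apart and Met, the receptor for the attractant Hgf, is needed for them to leave. Once in place, myoblasts switch on Myod1 and Myog, leave the cell cycle, fuse and build sarcomeres, while the liver grows against the caudal face of the folds.

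Values are log2 RMA values, on which a difference of 1 is 2-fold. Markers of fold mesenchyme fitted the label at both stages. Pdgfra, a growth factor receptor of mesenchyme, had medians of 10.84 at E12.5 and 10.81 at E11.5. Tcf7l2, a transcription factor that marks muscle connective tissue cells, had 10.61 at E12.5 and 10.65 at E11.5. Gata4, which the folds need for a closed diaphragm, had 9.74 at E12.5 and 9.45 at E11.5. Wt1, a regulator of mesothelium and the mesenchyme beneath it, had 10.42 at E12.5 and 10.58 at E11.5. These levels lie well above the lower quartile of an array, 6.46 to 6.59 at E12.5 and 6.40 to 6.64 at E11.5, a level below which signal and background were not told apart. A rise from under it (over 4 of the 8 E11.5 arrays below their lower quartile) is a lower bound at best.

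E12.5 replicate 2 stands apart from the other arrays. On the first principal component, with 16.2% of the variance of the 16 arrays, it lay at 44.6, against 4.03 to 17.0 for the other E12.5 arrays and −20.2 to 5.05 for the E11.5 arrays. Its mean correlation with the other arrays of its stage was 0.956, against 0.974 to 0.980 for each of the other 7. The E11.5 arrays had 0.961 to 0.974 within their own stage. Their mean correlation with each other, 0.965, was no higher than that between the stages, 0.967. The mean over 46 genes of hepatocytes and liver plasma proteins was 10.04 in it, against 6.97 to 8.22 in the other E12.5 arrays and 6.52 to 6.81 in the E11.5 arrays. The mean over 23 red cell genes other than globins was 9.46 in it, against 7.69 to 8.44 in the other E12.5 arrays and 7.89 to 8.34 in the E11.5 arrays. The mean over 20 thin filament genes was 8.90 in it, against 9.64 to 11.01 in the other E12.5 arrays and 8.75 to 9.69 in the E11.5 arrays. Counts of calls are therefore given with all 16 arrays and with the 15 arrays other than E12.5 replicate 2, and so is the change of each gene that rose in either fit, singly or as a range. A gene that passed in neither fit is mostly given with the p of 1 fit only. The stages also differ in the sex of the samples: Y-linked genes averaged 8.90 or more in 4 of 8 E12.5 arrays and 6 of 8 E11.5 arrays, and 5.58 or less in the rest. The sex-linked transcript Xist was at 11.705 to 12.018 in the rest. Among the arrays with high Y-linked genes, it was at 7.87 in E12.5 replicate 2 and at 5.43 to 6.03 in the others. The source of that difference was not tested.

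With all 16 arrays, 9 genes passed an adjusted p of 0.05 (limma, two-sided, Benjamini-Hochberg over all genes), 0.0465% of those tested, with 8 higher and 1 lower at E12.5. With the 15 arrays, 66 genes passed, 0.341% of those tested, with 63 higher and 3 lower. All 9 are among the 66. Rises made up 88.9% of the calls with 16 arrays (60.0% to 77.8% with the arrays centred on the median or 75th percentile or quantile-normalised again) and 95.5% with 15 arrays (82.0% to 85.5% so). The liver plasma proteins Alb, Serpina6, Afp and Apoa2, the muscle transcription factor Mef2c, the activin inhibitor Fst, the growth regulator Myc and the lectin-like membrane protein Clec2d rose in both fits. Nr2f1, an orphan nuclear receptor, fell in both. In a fit that also held the E16.5 arrays, 75 genes passed (0.388%), and 151 (0.780%) without E12.5 replicate 2. Changes of 2-fold or more numbered 6 rises with 16 arrays and 40 with 15, and 1 fall in each. At an unadjusted p under 0.05, 1186 genes were higher and 1408 lower at E12.5 with 16 arrays, 6.13% and 7.28%, while 1191 were higher and 1204 lower with 15 arrays, 6.15% and 6.22%. The median change over all genes was −0.03 in both fits. In a bulk sample, more cells of a type and more RNA per cell cannot be told apart, which holds for each gene below.

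**Figure D1:**
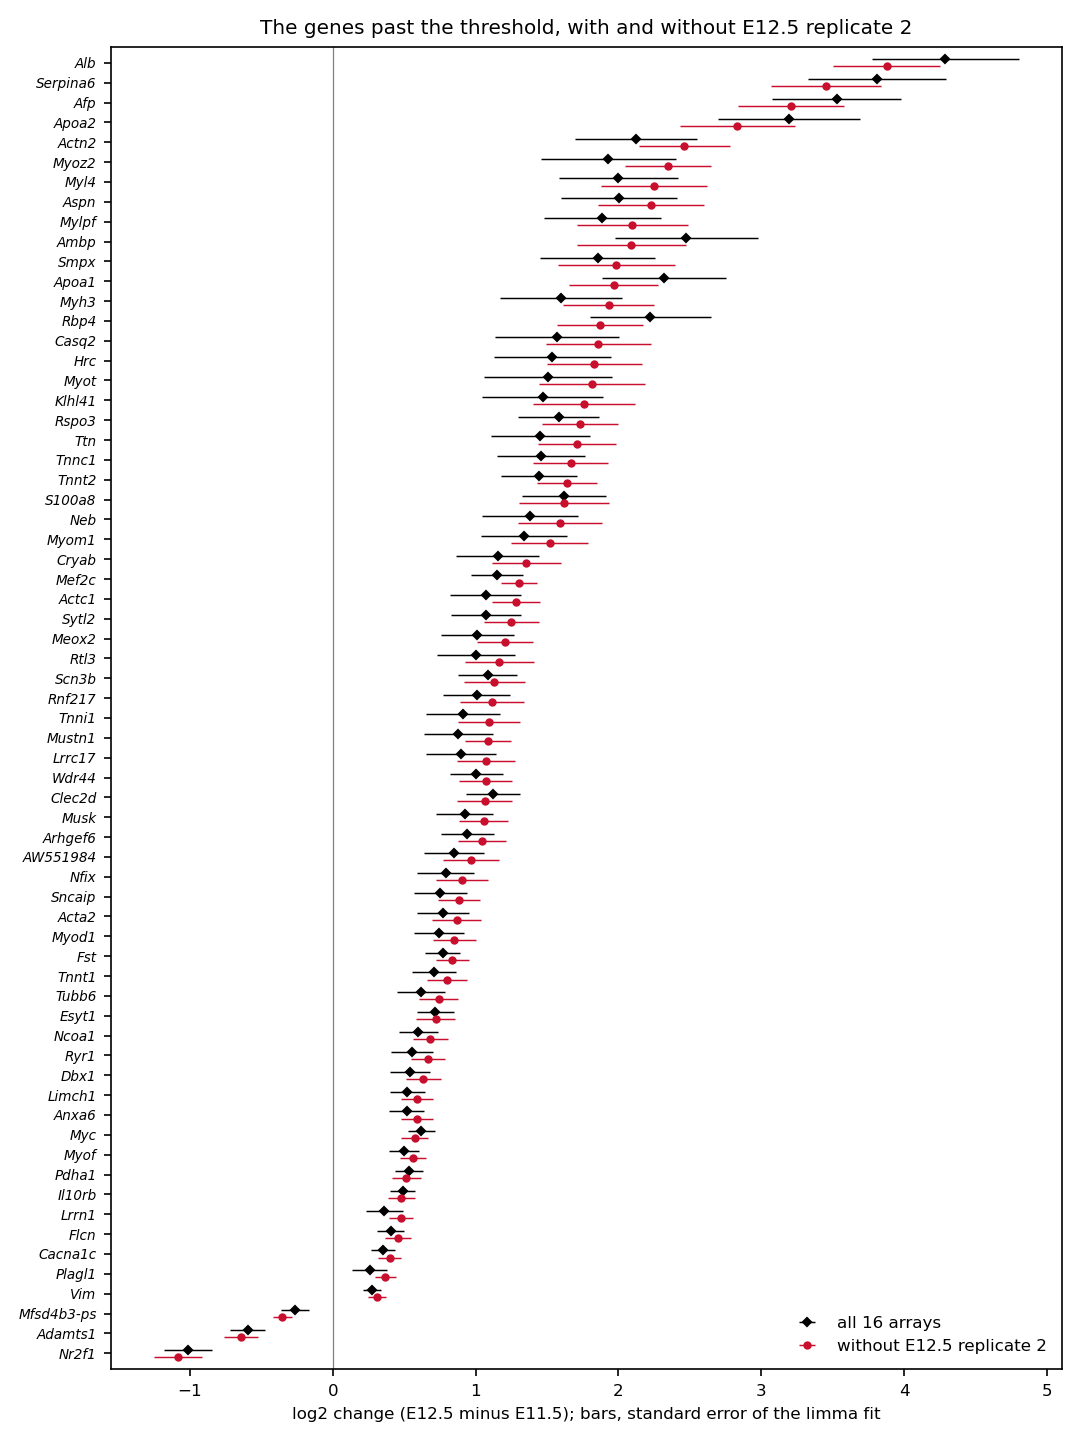
Log2 change of E12.5 over E11.5 for the 66 genes that passed an adjusted p of 0.05 in the fit of 15 arrays, each with its change over all 16 arrays (black diamonds) and over the 15 arrays without E12.5 replicate 2 (red points), with bars of the standard error. Over 15 arrays the changes reach 3.88 for Alb and 2.46 for Actn2, and Nr2f1, at −1.08, is the lowest of the 3 falls.

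The 9 muscle lists hold 189 measured genes. Of these, 1 rose with 16 arrays, where 0.0413% of all genes did, and 25 rose with 15 arrays, where 0.326% did; 0 fell in either. At an unadjusted p under 0.05, 72 were higher and 7 lower with 16 arrays, and 85 were higher and 8 lower with 15. Of all genes, 6.13% were higher and 7.28% lower so with 16 arrays, and 6.15% and 6.22% with 15. The 25 rises span 0.56 to 2.46 on the log2 scale. With 16 arrays, the 24 of them that were not called had changes of 0.50 to 2.12 and adjusted p of 0.0562 to 0.22. E12.5 replicate 2 was the lowest E12.5 array for 109 of the 189 genes (57.7%), against 18.5% of all genes. Among the 25, which were picked out by leaving it out, it was the lowest in 24 and lay there within the E11.5 range or under it. In 18 of the 25, E11.5 replicate 1 was the highest E11.5 array. In 16 of the 189 (8.47%), all 7 other E12.5 arrays lay above all 8 E11.5 arrays, a pattern that 0.269% of all genes show. With each of the 15 arrays left out in turn, 15 of the 25 kept their call.

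The hepatocyte list's mean in each array was also tried as a covariate. In the fit of 16 arrays 98 genes then passed, and 28 of the 189 muscle genes rose, 24 of the 25 among them, where 0.382% of all genes rose. There Mef2c rose by 1.55 (adjusted p = 0.000798), Actc1 by 1.64 (adjusted p = 0.00241) and Actn2 by 3.01 (adjusted p = 0.00298). The covariate was 10.04 in E12.5 replicate 2 and at most 8.22 in the other arrays, so adjusting for it comes near leaving that array out. The 25 were picked by leaving it out, so their return in this fit is not independent support. In the fit of 15 arrays 3 genes passed, and of the 66 only Alb kept its call. Alb and the other liver rises are members of the list whose mean was the covariate, so their adjusted changes are not independent of it. The changes of the 25 muscle genes were still all above 0 there, from 0.29 to 2.53, with 1.28 for Mef2c (adjusted p = 0.075) and 2.53 for Actn2 (adjusted p = 0.184). The list's mean does not overlap between the stages, as given above, so the stage and that mean cannot be told apart.

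Mef2c, a MADS-box factor that works with the MyoD family to switch on sarcomere genes, was the muscle gene that rose in both fits. Its values ran from 9.45 to 11.27 at E12.5, with a median of 10.60, and from 9.12 to 9.82 at E11.5, with a median of 9.38. The only E12.5 array inside the E11.5 range was replicate 2, at 9.45; the other 7 began at 10.36. The change was 1.15 ± 0.18 with 16 arrays (SE, adjusted p = 0.0236) and 1.31 ± 0.13 with 15 (adjusted p = 0.00014). With 16 arrays the call was lost when E11.5 replicate 3, 7 or 8 or E12.5 replicate 1, 4, 6 or 8 was left out, with an adjusted p up to 0.0746, and with 15 it held in every such run. Mef2a, a relative of the same family, had medians of 9.89 at E12.5 and 9.88 at E11.5.

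Myod1, which commits myoblasts to the muscle fate, ran from 8.63 to 10.01 at E12.5, with a median of 9.39, and from 7.92 to 9.19 at E11.5, with a median of 8.65. The ranges overlap, and E12.5 replicate 2 was the lowest of its stage. It rose by 0.85 ± 0.15 with 15 arrays (adjusted p = 0.0221), while the change was 0.74 ± 0.17 with 16 (adjusted p = 0.127). The call with 15 arrays was lost without E12.5 replicate 1, at an adjusted p of 0.0518. Myog, which drives terminal differentiation, had medians of 10.45 at E12.5 and 9.75 at E11.5 and missed the threshold in both fits (0.69 ± 0.15 with 15 arrays, adjusted p = 0.0534). Myf5, an early member of the same family, had 8.20 at E12.5 and 7.88 at E11.5 (adjusted p = 0.478 with 16 arrays). Myf6, a late member, lay below the lower quartile in 7 of 8 E12.5 arrays and 8 of 8 E11.5 arrays.

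Id2 and Id3 bind the partners of MyoD proteins and hold them off DNA. Id2 had medians of 9.26 at E12.5 and 10.27 at E11.5 (adjusted p = 0.191 with 16 arrays). Id3 had medians of 9.64 at E12.5 and 10.07 at E11.5 (adjusted p = 0.127). Neither passed the threshold. Of the 28 myogenic regulators measured, 6 were higher and 3 lower at an unadjusted p under 0.05 with 16 arrays, where 6.13% and 7.28% of all genes were. Their median change was 0.11 in both fits.

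Of 20 measured markers of migrating progenitors, 1 rose with 15 arrays, where 0.326% of all genes did, and 0 with 16; the median change was −0.04 with 16 arrays and −0.03 with 15. Pax3 had medians of 7.72 at E12.5 and 7.89 at E11.5 (adjusted p = 0.67 with 16 arrays). Lbx1, which guides migrating progenitors, had 8.01 at E12.5 and 8.03 at E11.5. Met had 7.59 at E12.5 and 7.55 at E11.5. The medians of these 3 genes lie closer together than the spread within either stage.

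The gene of that list that rose was Meox2, a homeobox factor of somites and limb muscle. It ran from 7.16 to 8.98 at E12.5, with a median of 8.69, and from 6.64 to 8.11 at E11.5, with a median of 7.59. E12.5 replicate 2, at 7.16, lay inside the E11.5 range and the other E12.5 arrays, from 8.27, above it. The change was 1.20 ± 0.20 with 15 arrays (adjusted p = 0.0119) and 1.01 with 16 (adjusted p = 0.152). Hgf had medians of 8.99 at E12.5 and 8.43 at E11.5, and its change of 0.87 ± 0.27 with 16 arrays missed the threshold (adjusted p = 0.235). Pax7, a marker of the later satellite cell lineage, had 7.95 at E12.5 and 7.66 at E11.5 (adjusted p = 0.306).

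Thin filament genes had the largest median change of the 9 muscle lists, 0.82 with 16 arrays and 0.99 with 15. Of 20 measured, 7 rose with 15 arrays (Actc1, Tnnt2, Tnnc1, Tnnt1, Neb, Tnni1 and Klhl41) and 0 with 16, where 0.326% and 0.0413% of all genes did. Actc1, the actin of heart and embryonic skeletal muscle, ran from 11.42 to 13.59 at E12.5, with a median of 13.01, and from 11.18 to 12.70 at E11.5, with a median of 11.82. The lowest E12.5 array was again replicate 2, and the other 7, from 12.98, lay above all E11.5 arrays. The change was 1.28 ± 0.17 with 15 arrays (adjusted p = 0.00198) and 1.07 ± 0.25 with 16 (adjusted p = 0.127). Its mean at E16.5 was 13.73.

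The troponin complex lays calcium control on the thin filament. Tnnt2, its tropomyosin-binding subunit of heart and embryonic muscle, ran from 10.55 to 12.57 at E12.5, with a median of 12.03, and from 9.69 to 11.32 at E11.5, with a median of 10.48. It rose by 1.64 ± 0.21 with 15 arrays (adjusted p = 0.00194). Tnnc1, the calcium-binding subunit of slow and cardiac muscle, rose by 1.66 ± 0.26 (adjusted p = 0.0101), with medians of 12.15 at E12.5 and 10.43 at E11.5. Tnnt1 and Tnni1, the slow skeletal subunits, rose by 0.80 ± 0.14 (adjusted p = 0.0181) and 1.09 ± 0.22 (adjusted p = 0.0381), against 0.71 and 0.91 with 16 arrays (adjusted p = 0.115 and 0.209). For Tnnt2 and Tnnc1 the changes with 16 arrays were 1.44 and 1.46, with adjusted p of 0.0562 and 0.101. Neb, the giant ruler of the thin filament, rose by 1.59 ± 0.30 with 15 arrays (adjusted p = 0.0265), where the change with 16 was 1.38 (adjusted p = 0.128). The calls of Neb, Tnni1 and Klhl41, a binding partner of nebulin, were the less stable: they were lost on leaving out 6, 12 and 12 of the 15 arrays, with adjusted p up to 0.0625, 0.0853 and 0.0894.

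Genes of the thick filament had a median change of 0.69 with 16 arrays and 0.81 with 15, and 22 of 23 were higher on average at E12.5 in each fit. Of all genes, 57.9% were lower on average with 16 arrays and 58.0% with 15. With 15 arrays Ttn, Myh3, Myl4, Mylpf and Myom1 rose, and 0 rose with 16, where 0.326% and 0.0413% of all genes did. Ttn, the molecular spring that spans from Z-disc to M-line, ran from 8.82 to 12 at E12.5, with a median of 10.62, and from 8.50 to 10.62 at E11.5, with a median of 9.02. The top E11.5 value belongs to replicate 1. The change was 1.71 ± 0.27 with 15 arrays (adjusted p = 0.0107) and 1.45 with 16 (adjusted p = 0.127).

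Myh3, the embryonic myosin heavy chain, had medians of 10.09 at E12.5 and 8.27 at E11.5 and rose by 1.93 ± 0.32 with 15 arrays (adjusted p = 0.0119). Its partners among the light chains also rose in that fit: Myl4, the atrial and embryonic essential chain, by 2.25 ± 0.37 (adjusted p = 0.0119), and Mylpf, the fast regulatory chain, by 2.10 ± 0.39 (adjusted p = 0.0251). The Mylpf call was lost without E11.5 replicate 6 or E12.5 replicate 1, 6 or 8, with an adjusted p up to 0.0625. With 16 arrays Myh3, Myl4 and Mylpf had changes of 1.59 ± 0.43, 1.999 ± 0.42 and 1.89 ± 0.41 and adjusted p of 0.186, 0.0966 and 0.108. The heavy chains of later muscle did not pass. Myh8, the perinatal form, lay between 7.30 and 12.34 at E12.5 and between 7.29 and 9.05 at E11.5 (adjusted p = 0.279 with 15 arrays). Myh7, the slow form, had medians of 8.05 at E12.5 and 7.40 at E11.5 (adjusted p = 0.0548 with 15 arrays).

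**Figure D2:**
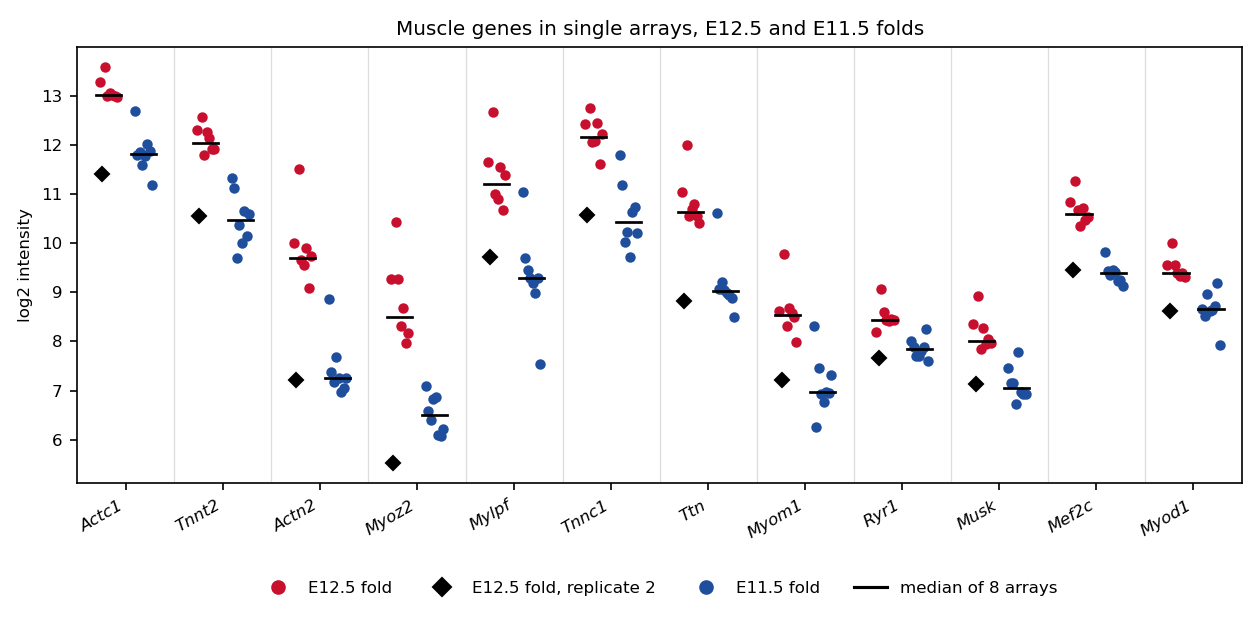
Log2 RMA value of 12 muscle genes in each of the 8 E12.5 arrays (red, left) and 8 E11.5 arrays (blue, right), with a line at the median of 8 and E12.5 replicate 2 as a black diamond. For Mef2c, Actc1 and Actn2 the diamond lies within the E11.5 range and for Myoz2 under it, while the other 7 E12.5 arrays lie above all E11.5 arrays.

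Genes of the Z-disc and costamere anchor thin filaments and tie them to the membrane. Of 29 measured, 5 rose with 15 arrays and 0 with 16, where 0.326% and 0.0413% of all genes did. The median change was 0.40 with 16 arrays and 0.46 with 15. Actn2, the actin cross-linker of the Z-disc, showed the widest change of any muscle gene called: 7.21 to 11.502 at E12.5, with a median of 9.69, and 6.97 to 8.86 at E11.5, with a median of 7.26. E12.5 replicate 2, at 7.21, lay among the E11.5 arrays, and the other 7 started at 9.09, above E11.5 replicate 1, the highest of its stage. The change was 2.46 ± 0.32 with 15 arrays (adjusted p = 0.00194) and 2.12 ± 0.43 with 16 (adjusted p = 0.0824). Its E16.5 mean was 12.78.

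Myoz2, which binds calcineurin at the Z-disc, ran from 5.52 to 10.42 at E12.5, with a median of 8.49, and from 6.08 to 7.09 at E11.5, with a median of 6.49. Here E12.5 replicate 2 was below every E11.5 array, and the other 7, from 7.97, above them. It rose by 2.35 ± 0.30 with 15 arrays (adjusted p = 0.00194), and the change with 16 was 1.93 ± 0.47 (adjusted p = 0.134). At E11.5 it was below the lower quartile in 5 of 8 arrays, so the rise is only a lower bound. Cryab, a small heat shock protein that shields desmin and titin, rose by 1.35 ± 0.24 (adjusted p = 0.022), a call lost without E12.5 replicate 1 (adjusted p = 0.0518). Myot and Smpx, other Z-disc and costamere proteins, rose by 1.82 ± 0.37 (adjusted p = 0.0481) and 1.98 ± 0.41 (adjusted p = 0.0495). Those calls were lost on leaving out 12 and 11 of the 15 arrays. With 16 arrays Cryab, Myot and Smpx had changes of 1.15, 1.51 and 1.85 and adjusted p of 0.152, 0.22 and 0.108. For Smpx, 8 of 8 E11.5 arrays lay below the lower quartile, so this rise, too, is only a lower bound. Des, the intermediate filament that links Z-discs, had medians of 9.15 at E12.5 and 8.47 at E11.5 and missed the threshold (adjusted p = 0.11 with 15 arrays).

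The triad couples the membrane's action potential to calcium release. Of its 19 measured genes, 3 rose with 15 arrays and 0 with 16, where 0.326% and 0.0413% of all genes did. The median change was 0.27 with 16 arrays and 0.39 with 15. Ryr1, the calcium release channel of skeletal muscle, had medians of 8.44 at E12.5 and 7.84 at E11.5 and rose by 0.66 ± 0.12 with 15 arrays (adjusted p = 0.0221). Hrc, which binds calcium inside the reticulum, had 9.85 at E12.5 and 7.91 at E11.5 and rose by 1.83 ± 0.33 (adjusted p = 0.0225). The Hrc call was lost without E12.5 replicate 6, at an adjusted p of 0.0503. Casq2, the calcium store protein of slow and cardiac muscle, rose by 1.86 ± 0.37 (adjusted p = 0.0381), and lost its call on leaving out 11 of the 15 arrays. With 16 arrays Ryr1, Hrc and Casq2 had changes of 0.56, 1.54 and 1.57 and adjusted p of 0.186, 0.186 and 0.191. Atp2a1, the pump that returns calcium to the store, had 9.03 at E12.5 and 8.23 at E11.5 (adjusted p = 0.0934 with 15 arrays).

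At the neuromuscular junction, 1 gene of 12 rose with 15 arrays, where 0.326% of all genes did. Musk, the receptor kinase by which nerve-derived agrin gathers acetylcholine receptors, ran from 7.13 to 8.92 at E12.5, with a median of 8.01, and from 6.73 to 7.79 at E11.5, with a median of 7.05. E12.5 replicate 2 was inside the E11.5 range and the other 7 were above it. The change was 1.06 ± 0.17 with 15 arrays (adjusted p = 0.0107) and 0.92 ± 0.20 with 16 (adjusted p = 0.108). Chrnd, the receptor's delta subunit, had 7.41 at E12.5 and 7.13 at E11.5 (adjusted p = 0.226 with 16 arrays). Dok7, the activator of Musk inside the cell, had 7.54 at E12.5 and 7.67 at E11.5 (adjusted p = 0.276 with 16 arrays).

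The 16 genes of muscle energy metabolism were all higher on average at E12.5 in both fits, with median changes of 0.34 and 0.41, yet 0 passed. Of all genes, 57.9% were lower on average with 16 arrays and 58.0% with 15. Pgam2, the muscle phosphoglycerate mutase of glycolysis, had medians of 9.79 at E12.5 and 8.58 at E11.5 (adjusted p = 0.313 with 16 arrays and 0.134 with 15). Ppargc1a, the coactivator that drives the making of mitochondria, had 7.78 at E12.5 and 7.16 at E11.5 (adjusted p = 0.253 with 16 arrays). The list's mean was 9.44 in E12.5 replicate 3 and 8.32 in the next E12.5 array.

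Of 22 genes of myoblast adhesion and fusion, 1 rose with 15 arrays, where 0.326% of all genes did. It was Myof, a ferlin that acts in membrane fusion and repair, with medians of 7.97 at E12.5 and 7.48 at E11.5. Its change was 0.56 ± 0.09 with 15 arrays (adjusted p = 0.0122) and 0.50 ± 0.10 with 16 (adjusted p = 0.0966). The fusogens Mymk and Mymx, which together merge myoblast membranes, missed the threshold. Mymk had medians of 9.83 at E12.5 and 8.84 at E11.5 (adjusted p = 0.0542 with 15 arrays). Mymx had 10.15 at E12.5 and 9.82 at E11.5 (adjusted p = 0.116 with 15 arrays).

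Promoter sequence was read for the genes that rose together, since MEF2 factors and MyoD proteins bind known short motifs. Taken from RefSeq on GRCm38.p6, 250 bases before the gene start were at hand for 21 of the 25 muscle-list rises. The MEF2 site, searched on both strands, occurred in 5 of the 21 genes (23.8%), against 3.42% of 27025 genes with a promoter. Muscle-list genes that did not rise were not counted apart, so whether the site goes with the rise was not tested. The E-box CANNTG occurred in 16 of the 21 genes (76.2%), against 69.3% of genes with a promoter. The 5 promoters with the MEF2 site are printed here, 5′ to 3′ on the gene's own strand, with the match in capitals. They lie at chr3:123034988-123035237 for Myoz2 (minus strand), chr2:76982548-76982797 for Ttn (minus), chr3:102086165-102086414 for Casq2 (plus), chr2:69669870-69670119 for Klhl41 (plus) and chr12:37108290-37108539 for Meox2 (plus).
Myoz2: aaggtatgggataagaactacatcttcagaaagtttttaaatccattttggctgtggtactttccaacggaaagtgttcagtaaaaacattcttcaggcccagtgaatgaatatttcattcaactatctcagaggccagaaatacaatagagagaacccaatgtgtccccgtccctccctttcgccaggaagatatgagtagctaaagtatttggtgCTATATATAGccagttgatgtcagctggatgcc
Ttn: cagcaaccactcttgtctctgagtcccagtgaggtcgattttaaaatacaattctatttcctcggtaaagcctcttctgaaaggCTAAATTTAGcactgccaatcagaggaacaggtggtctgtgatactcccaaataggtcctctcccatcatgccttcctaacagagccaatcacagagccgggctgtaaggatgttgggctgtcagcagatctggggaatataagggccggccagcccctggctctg
Casq2: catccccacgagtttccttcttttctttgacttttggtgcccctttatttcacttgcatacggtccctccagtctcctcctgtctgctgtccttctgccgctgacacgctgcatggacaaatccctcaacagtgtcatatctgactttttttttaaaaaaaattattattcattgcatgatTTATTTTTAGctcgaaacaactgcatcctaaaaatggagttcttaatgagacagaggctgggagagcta
Klhl41: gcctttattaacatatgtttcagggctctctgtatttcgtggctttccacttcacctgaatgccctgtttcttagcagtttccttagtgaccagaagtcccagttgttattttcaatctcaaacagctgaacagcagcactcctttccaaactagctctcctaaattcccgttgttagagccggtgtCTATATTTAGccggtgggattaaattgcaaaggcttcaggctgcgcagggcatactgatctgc
Meox2: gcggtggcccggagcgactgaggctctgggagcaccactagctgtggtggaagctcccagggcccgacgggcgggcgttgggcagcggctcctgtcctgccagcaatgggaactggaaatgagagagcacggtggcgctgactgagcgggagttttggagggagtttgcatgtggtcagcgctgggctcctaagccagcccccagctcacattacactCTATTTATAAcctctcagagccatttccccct
The first base of the match lies 33, 166, 69, 63 and 32 bases before the start of Myoz2, Ttn, Casq2, Klhl41 and Meox2. A match is a string of letters, and no binding was measured here.

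Of 40 genes of fold mesenchyme and muscle connective tissue, 28 were lower on average at E12.5 with 16 arrays and 26 with 15, where 57.9% and 58.0% of all genes were, and the median change was −0.15 with 16 arrays and −0.16 with 15. At an unadjusted p under 0.05, 10 were lower and 0 higher with 16 arrays, and 8 were lower and 1 higher with 15, against 7.28% and 6.22% of all genes lower. After adjustment 1 fell, where 0.00517% of all genes fell with 16 arrays and 0.0155% with 15.

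That gene was Nr2f1 (COUP-TFI), a nuclear receptor known from neural and mesenchymal development. It ran from 6.96 to 8.13 at E12.5, with a median of 7.68, and from 8.28 to 9.17 at E11.5, with a median of 8.64. The groups do not overlap, and E12.5 replicate 2, at 8.13, is the E12.5 array nearest to E11.5. The fall was −1.01 ± 0.17 with 16 arrays (adjusted p = 0.0328) and −1.08 ± 0.17 with 15 (adjusted p = 0.0101). With 16 arrays the call was lost in 10 of the 16 runs that leave out an array (E11.5 replicates 1, 3, 4, 5, 7 and 8, E12.5 replicates 1, 3, 6 and 8), with an adjusted p up to 0.0862; with 15 arrays it held in all of them. The E16.5 mean was 6.42. Its close relative Nr2f2, a gene of diaphragm hernia, had medians of 9.55 at E12.5 and 9.65 at E11.5 (adjusted p = 0.714 with 16 arrays).

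**Figure D3:**
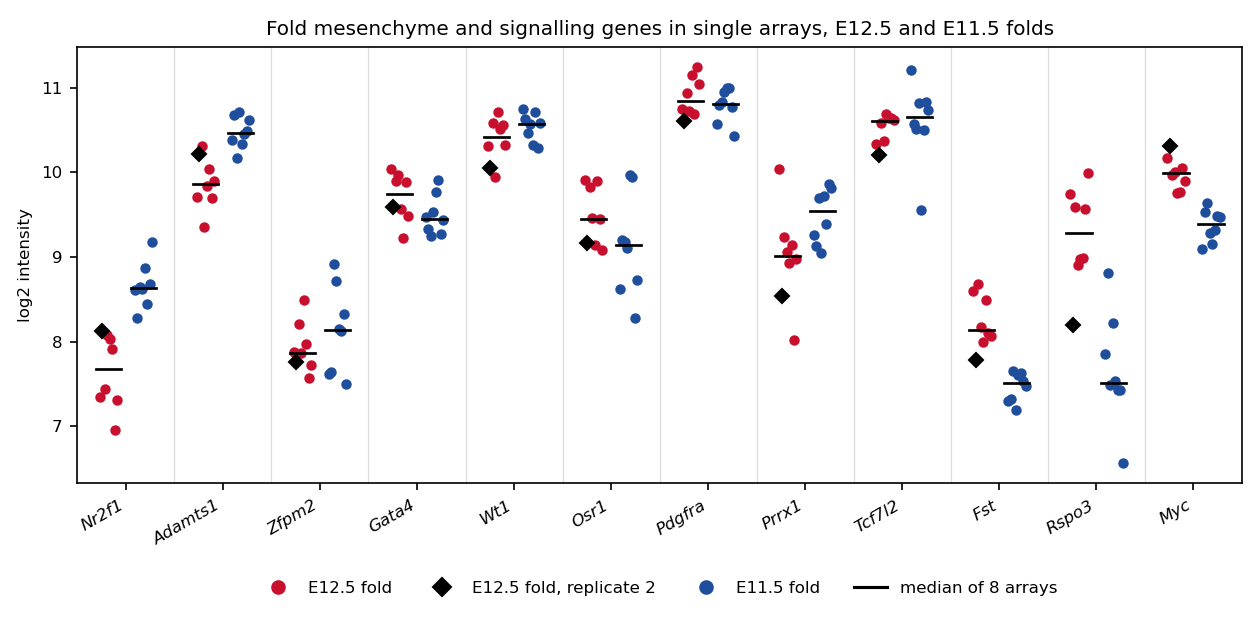
Log2 RMA value of 12 fold mesenchyme, signalling and matrix genes in each E12.5 array (red, left) and E11.5 array (blue, right), with a line at the median of 8 and E12.5 replicate 2 as a black diamond. Nr2f1 lies between 6.96 and 8.13 at E12.5, under all E11.5 arrays, while Fst lies above them.

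Other members of the fold list are given as values, since none passed. Tbx5, a T-box factor of heart and forelimb field, had medians of 8.53 at E12.5 and 9.23 at E11.5 (adjusted p = 0.253 with 16 arrays). Meis1 and Meis2, homeobox partners of Hox proteins, differed by −0.32 ± 0.10 and −0.31 ± 0.10 with 16 arrays (adjusted p = 0.238 and 0.241). Prrx1, a marker of limb and body wall mesenchyme, had 9.02 at E12.5 and 9.55 at E11.5 (adjusted p = 0.337). The ranges of all 4 overlap between the stages. Osr1, also used to mark muscle connective tissue cells, had 9.45 at E12.5 and 9.14 at E11.5, and Zfpm2, the Gata4 partner whose loss leaves the diaphragm unmuscled, had 7.87 at E12.5 and 8.14 at E11.5.

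The mesothelium list, 19 genes, had 0 calls and a median change of −0.10 with 16 arrays and −0.11 with 15. In each fit 3 genes were lower at an unadjusted p under 0.05, against 7.28% of all genes with 16 arrays and 6.22% with 15. Tbx18, a T-box factor of embryonic mesothelium, ran from 6.35 to 6.96 at E12.5, with a median of 6.68, and from 6.63 to 8.64 at E11.5, with a median of 7.18 (adjusted p = 0.238 with 16 arrays). Upk3b, a surface protein of mesothelium, had 9.07 at E12.5 and 9.72 at E11.5 (adjusted p = 0.33). Msln, the marker of mature mesothelium, had 7.05 at E12.5 and 7.10 at E11.5. Both Tbx18 and Upk3b overlap between the stages.

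Hox genes, which record position along the body axis, were lower on average at E12.5 in 34 of 37 with 16 arrays and 33 of 37 with 15, where 57.9% and 58.0% of all genes were. At an unadjusted p under 0.05, 13 were lower and 0 higher with 16 arrays, 10 lower and 0 higher with 15, against 7.28% and 6.22% of all genes lower, and 0 passed the adjusted threshold. The median change was −0.17 with 16 arrays and −0.14 with 15. Hoxb5, among the smallest p of the list, ran from 7.91 to 9.70 at E12.5, with a median of 8.83, and from 9.11 to 9.91 at E11.5, with a median of 9.28 (adjusted p = 0.276 with 16 arrays). Hoxa5, which patterns cervical and thoracic levels, had 10.02 at E12.5 and 10.27 at E11.5 (adjusted p = 0.504). In 8 of the 37 over 4 of the E11.5 arrays lay below the lower quartile, so those values are near background.

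The 44 diaphragm hernia genes, known from patients and mouse mutants, had a median change of −0.06 with 16 arrays and −0.04 with 15. At an unadjusted p under 0.05, 5 were higher and 5 lower in each fit. Of all genes, 6.13% were higher and 7.28% lower so with 16 arrays, and 6.15% and 6.22% with 15. The only call with 15 arrays, where 0.326% of all genes rose, was Myod1, given above.

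Among signalling genes, Fst changed in both fits. Fst encodes follistatin, which binds activin and myostatin outside the cell and lifts their brake on muscle growth. It ran from 7.78 to 8.68 at E12.5, with a median of 8.14, and from 7.19 to 7.66 at E11.5, with a median of 7.51. No E12.5 array overlaps E11.5, a pattern that 0.0930% of genes show with 16 arrays, and replicate 2 is the lowest of its stage. The rise was 0.77 ± 0.12 with 16 arrays (adjusted p = 0.0236) and 0.84 ± 0.11 with 15 (adjusted p = 0.00329). With 16 arrays it was lost without E11.5 replicate 7 or 8 or E12.5 replicate 1, 6 or 8, with an adjusted p up to 0.0659. The E16.5 mean was 7.60, near the E11.5 median. Inhba, the activin subunit that follistatin binds, had medians of 8.07 at E12.5 and 7.66 at E11.5 (adjusted p = 0.448 with 16 arrays).

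Rspo3, an R-spondin that raises Wnt signalling through Lgr receptors, ran from 8.19 to 9.99 at E12.5, with a median of 9.28, and from 6.56 to 8.82 at E11.5, with a median of 7.51. E12.5 replicate 2 was the only array of its stage inside the E11.5 range. The change was 1.73 ± 0.26 with 15 arrays (adjusted p = 0.00992) and 1.58 ± 0.28 with 16 (adjusted p = 0.055). Lgr5, a receptor for R-spondins, had medians of 7.22 at E12.5 and 7.01 at E11.5 (adjusted p = 0.261 with 16 arrays). Wnt5a, a ligand of the non-canonical branch, had 7.40 at E12.5 and 8.04 at E11.5 (adjusted p = 0.241). Over the 42 Wnt ligands, receptors and R-spondins the median change was −0.07 with 16 arrays and −0.06 with 15. Rspo3 was their only call, in the fit of 15 arrays, where 0.326% of all genes rose.

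Myc, a transcription factor of growth and ribosome making, ran from 9.75 to 10.32 at E12.5, with a median of 9.99, and from 9.09 to 9.64 at E11.5, with a median of 9.39. The groups do not overlap, and E12.5 replicate 2 is the highest. The rise was 0.62 ± 0.10 with 16 arrays (adjusted p = 0.0236) and 0.57 ± 0.09 with 15 (adjusted p = 0.0107). The 16-array call was lost without E11.5 replicate 8 or E12.5 replicate 1 or 8, with an adjusted p up to 0.0548. The 39 cell cycle genes had 0 calls and a median change of 0.03 with 16 arrays and 0.01 with 15. Cdkn1c, the imprinted inhibitor of cyclin-dependent kinases that takes myoblasts out of the cycle, had medians of 12.40 at E12.5 and 12.15 at E11.5 (adjusted p = 0.266 with 16 arrays). Plagl1, an imprinted zinc finger factor, rose by 0.37 ± 0.07 with 15 arrays (adjusted p = 0.045), a call lost on leaving out 13 of them.

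In the matrix, Aspn was the gene that rose. Aspn encodes asporin, a small leucine-rich proteoglycan of collagen fibrils. It ran from 6.85 to 10.20 at E12.5, with a median of 8.50, and from 5.58 to 7.47 at E11.5, with a median of 6.35. The ranges overlap at their ends, and 6 of 8 E11.5 arrays lay below the lower quartile, so this rise is only a lower bound. It was 2.23 ± 0.37 with 15 arrays (adjusted p = 0.0122) and missed the threshold with 16 (adjusted p = 0.0824). Over the 15 small leucine-rich proteoglycans measured, the median change was 0.05 with 16 arrays and 0.10 with 15. In each fit 9 were higher on average at E12.5. At an unadjusted p under 0.05, 6 were higher and 2 lower with 16 arrays, where 6.13% and 7.28% of all genes were. With 15 arrays, 6 were higher and 1 lower, against 6.15% and 6.22%. Chad, a further member, was lower on average at E12.5. Dcn, Lum and Ogn had higher medians at E12.5 without passing. Dcn (decorin) had 10.56 at E12.5 and 9.35 at E11.5 (adjusted p = 0.21 with 16 arrays). Lum (lumican) had 10.70 at E12.5 and 9.61 at E11.5 (adjusted p = 0.215), and Ogn (osteoglycin) 8.69 at E12.5 and 7.06 at E11.5 (adjusted p = 0.313).

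The 41 collagens had 0 calls, with 6 higher and 1 lower at an unadjusted p under 0.05 with 16 arrays, where 6.13% and 7.28% of all genes were. Col6a3, a chain of the collagen that links muscle fibres to their matrix, had medians of 9.48 at E12.5 and 8.99 at E11.5 (adjusted p = 0.0823 with 15 arrays). Postn (periostin), a matricellular protein of tendon and connective tissue, had 10.88 at E12.5 and 9.78 at E11.5 (adjusted p = 0.0558 with 15 arrays). Adamts1, a secreted protease that cleaves proteoglycans, fell with 15 arrays (−0.64 ± 0.12, adjusted p = 0.0285), with medians of 9.87 at E12.5 and 10.47 at E11.5. The fall was lost on leaving out 8 of the 15 arrays, with an adjusted p up to 0.0746, and with 16 arrays the change was −0.60 (adjusted p = 0.085).

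Acta2, smooth muscle actin, which early skeletal myotubes and myofibroblasts also make, rose by 0.87 ± 0.17 with 15 arrays (adjusted p = 0.0368), with medians of 11.56 at E12.5 and 10.83 at E11.5. Leaving out 9 of the 15 arrays lost the call. It was the only call among 15 smooth muscle and pericyte genes with 15 arrays, where 0.326% of all genes rose.

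Liver plasma proteins gave the widest changes. Of 46 hepatocyte and liver plasma protein genes, 4 rose with 16 arrays and 7 with 15, where 0.0413% and 0.326% of all genes did, with changes of 1.87 to 3.88 in the fit of 15. At an unadjusted p under 0.05, 19 were higher and 0 lower with 16 arrays, and 22 were higher and 1 lower with 15, against 6.13% and 6.15% of all genes higher. The list's median change was 0.62 with 16 arrays and 0.31 with 15. E12.5 replicate 2 was the highest of its stage for 44 of the 46, all 7 rises included. That array was set apart for its high liver transcripts, so this count restates how it was chosen. The share of all genes in which it is highest was not counted. In each of the 7 rises, which were picked from these same arrays, the other E12.5 arrays also lay above all 8 E11.5 arrays. Over the whole list 10 of the 46 genes showed this pattern, against 0.269% of all genes.

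Alb, serum albumin, ran from 8.30 to 13.32 at E12.5, with a median of 10.32, and from 5.78 to 6.70 at E11.5, with a median of 6.11. The groups do not overlap, and without replicate 2 the E12.5 arrays still reach 11.90. The rise was 4.29 ± 0.51 with 16 arrays (adjusted p = 0.0031) and 3.88 ± 0.38 with 15 (adjusted p = 0.00014). It is a lower bound at best, because 7 of 8 E11.5 arrays had Alb below their lower quartile. The E16.5 mean was 12.80.

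Afp, alpha-fetoprotein, the main plasma protein of the fetal liver, ran from 8.49 to 12.41 at E12.5, with a median of 10.12, and from 6.17 to 7.66 at E11.5, with a median of 6.49. Serpina6, the carrier of corticosteroids in blood, ran from 7.24 to 12.02 at E12.5, with a median of 9.20, and from 5.45 to 5.94 at E11.5, with a median of 5.74. Neither gene has an E12.5 array within the E11.5 range. Afp rose by 3.53 ± 0.45 with 16 arrays (adjusted p = 0.0031) and 3.21 ± 0.37 with 15 (adjusted p = 0.000753). Serpina6 rose by 3.81 ± 0.49 with 16 arrays (adjusted p = 0.0031) and 3.45 ± 0.38 with 15 (adjusted p = 0.000646). Over 4 E11.5 arrays had each of them below the lower quartile (5 for Afp, 8 for Serpina6), so both changes are lower bounds at best. With any of the 16 arrays left out, the calls of Alb, Afp and Serpina6 held, with adjusted p up to 0.0114.

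Apoa2, an apolipoprotein of high-density lipoprotein, ran from 9.62 to 13.90 at E12.5, with a median of 11.35, and from 7.71 to 9.30 at E11.5, with a median of 7.996. It rose by 3.19 ± 0.50 with 16 arrays (adjusted p = 0.0236) and 2.83 ± 0.40 with 15 (adjusted p = 0.00455). The 16-array call was lost without E11.5 replicate 7 or 8 or E12.5 replicate 6 or 8, with an adjusted p up to 0.0659. Apoa1, its partner in the same particle, rose by 1.97 ± 0.31 with 15 arrays (adjusted p = 0.0107), with medians of 10.05 at E12.5 and 7.89 at E11.5. Rbp4, the plasma carrier of retinol, rose by 1.87 ± 0.30 in that fit (adjusted p = 0.0107), with medians of 8.93 at E12.5 and 7.16 at E11.5. Ambp, the precursor of bikunin, rose by 2.09 ± 0.38 (adjusted p = 0.0239), a call lost without E11.5 replicate 7 or E12.5 replicate 3 or 8 (adjusted p up to 0.0622). With 16 arrays Apoa1, Rbp4 and Ambp had changes of 2.32, 2.22 and 2.47 and adjusted p of 0.0583, 0.0646 and 0.0824.

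Not all liver genes followed. Ttr, the carrier of thyroid hormone, had medians of 8.52 at E12.5 and 7.18 at E11.5, and missed the threshold (adjusted p = 0.191 with 16 arrays and 0.0809 with 15). Trf, the iron carrier transferrin, had 8.84 at E12.5 and 8.02 at E11.5, with no overlap between the stages (adjusted p = 0.244 with 16 arrays). Ahsg, fetuin-A, had 6.57 at E12.5 and 6.10 at E11.5, and reached 10.98 in E12.5 replicate 2. Hnf4a, the transcription factor that keeps hepatocytes differentiated, had 7.90 at E12.5 and 7.68 at E11.5, with 8.97 in E12.5 replicate 2 (adjusted p = 0.397 with 16 arrays). For 16 of the 46 genes over 4 E11.5 arrays lay below the lower quartile.

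**Figure D4:**
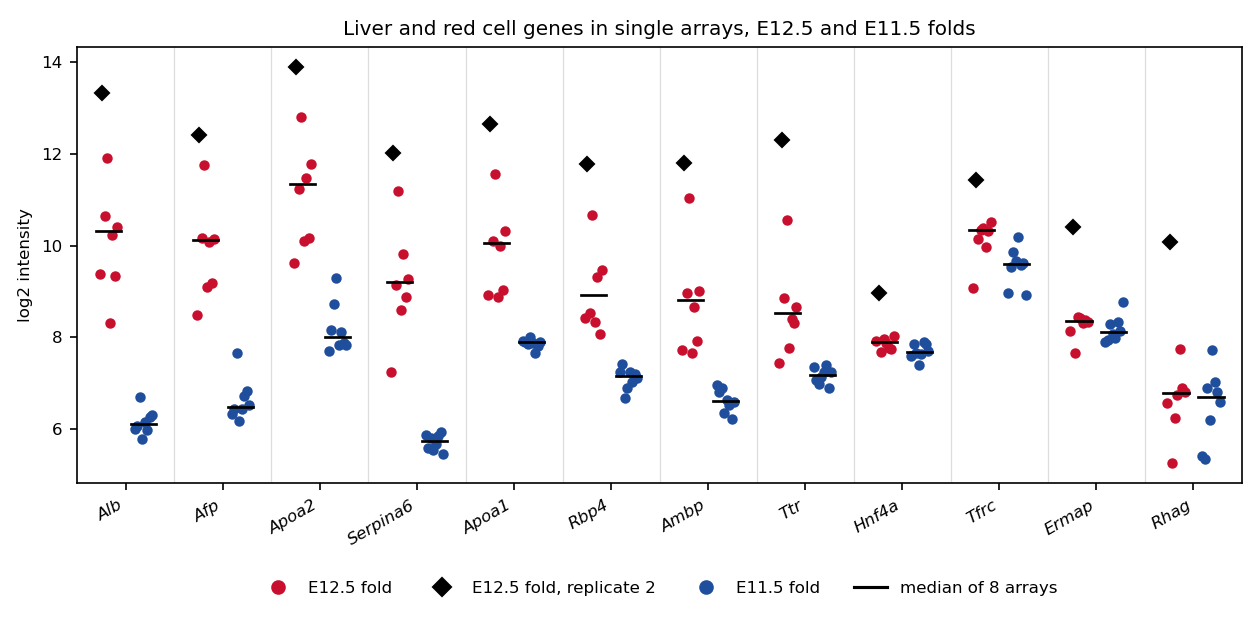
Log2 RMA value of 12 liver and red cell genes in each E12.5 array (red, left) and E11.5 array (blue, right), with a line at the median of 8 and E12.5 replicate 2 as a black diamond. The diamond is the top value of each gene shown, and the other E12.5 arrays of Alb, from 8.30 to 11.90, also stand clear of E11.5.

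The promoters of Alb and Afp, neighbours on chromosome 5, are shown because both held the HNF1 half-site GTTAAT, a motif of a hepatocyte transcription factor, among the 6 liver rises whose promoter was at hand. It occurred in 2 of the 6, on either strand, against 7.49% of 27025 genes with a promoter, and in 4 of the 21 muscle-list rises. Liver-list genes that did not rise were not counted apart. The windows are the 250 bases before the start, RefSeq on GRCm38.p6, plus strand, at chr5:90460620-90460869 for Alb and chr5:90490464-90490713 for Afp, with the match in capitals.
Alb: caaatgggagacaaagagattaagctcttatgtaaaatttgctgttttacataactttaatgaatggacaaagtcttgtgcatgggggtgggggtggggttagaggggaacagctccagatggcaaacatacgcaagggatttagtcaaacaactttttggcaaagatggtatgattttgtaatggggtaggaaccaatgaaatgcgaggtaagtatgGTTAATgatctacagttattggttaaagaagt
Afp: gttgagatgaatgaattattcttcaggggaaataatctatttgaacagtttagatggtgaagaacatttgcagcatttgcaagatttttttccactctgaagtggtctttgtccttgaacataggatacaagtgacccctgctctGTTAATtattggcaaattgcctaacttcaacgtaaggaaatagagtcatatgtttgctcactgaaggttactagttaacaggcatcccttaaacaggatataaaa
The match begins 32 bases before the start of Alb and 105 bases before that of Afp. No factor's binding was measured.

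Red cell genes did not pass in either fit. The 23 red cell genes other than globins had 0 calls, and a median change of 0.15 with 16 arrays and 0.06 with 15. Ermap, an erythroid membrane protein, was at 10.41 in E12.5 replicate 2, against 7.65 to 8.44 in the other E12.5 arrays and 7.89 to 8.78 at E11.5. Rhag, a subunit of the Rh complex, was at 10.07 in it, against 5.25 to 7.75 in the other E12.5 arrays and 5.33 to 7.72 at E11.5. Tfrc, the transferrin receptor, was at 11.44 in it, with E12.5 and E11.5 medians of 10.33 and 9.59 (adjusted p = 0.253 with 16 arrays). The 7 globins had 0 calls. Hbb-bh1, a beta-like globin of primitive red cells, ran from 10.69 to 12.99 at E12.5, with a median of 11.99, and from 12.60 to 13.30 at E11.5, with a median of 12.95 (−0.95 ± 0.30 with 16 arrays, adjusted p = 0.239). Its E16.5 mean was 6.30. Hba-x, the embryonic alpha-like globin, had 12.80 at E12.5 and 13.20 at E11.5 (adjusted p = 0.313).

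Lists of other cell types gave few calls, where 0.0465% of all genes passed with 16 arrays and 0.341% with 15. At these shares a list of this size would mostly hold 0 calls, so 0 does not show that a list was unchanged. The same holds for the other lists with 0 calls above. The 26 genes of neurons and axons had 0, with a median change of −0.11 in both fits, and Nefl, a neurofilament, had medians of 7.09 at E12.5 and 7.66 at E11.5 (adjusted p = 0.265 with 16 arrays). The 14 Schwann cell, 30 endothelial, 26 macrophage, 20 lung epithelium and 17 cartilage and bone genes had 0 calls in either fit. Of 23 cardiomyocyte genes 1 rose with 15 arrays, where 0.326% of all genes did. It was Tnnt2, which the thin filament list also holds, and the median change of the 23 was 0.01 in both fits. The Hedgehog, Bmp, Notch, Fgf, Slit and Robo, semaphorin and ephrin lists had 0 calls in either fit.

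**Figure D5:**
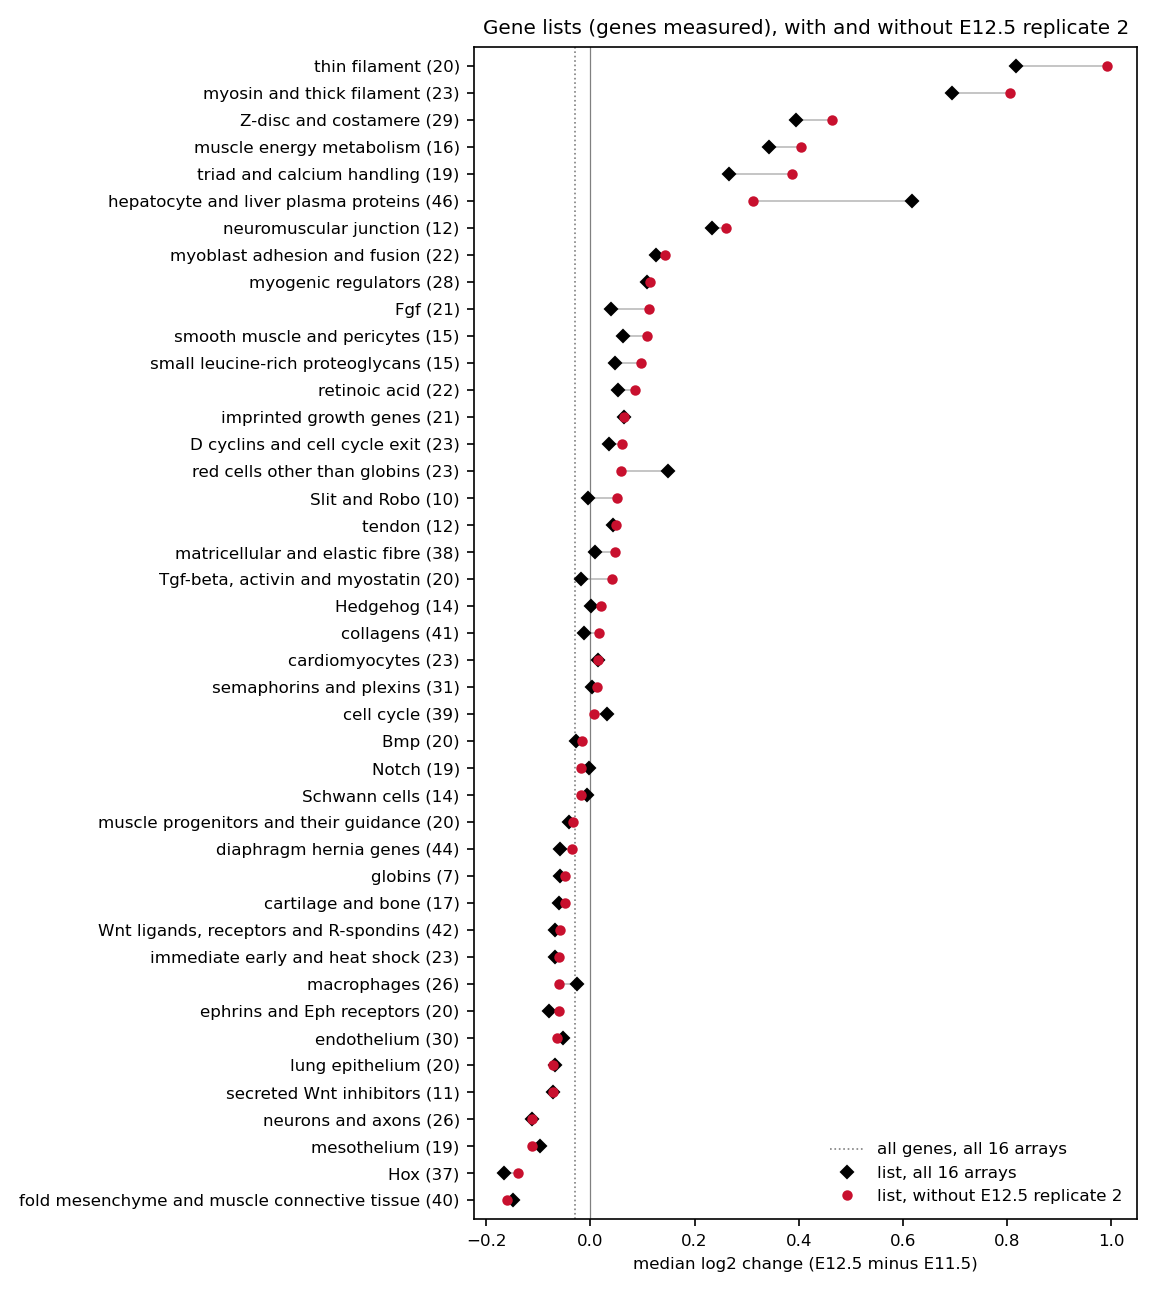
Median log2 change of E12.5 over E11.5 for each gene list (genes measured in brackets) with all 16 arrays (black diamonds) and with the 15 arrays other than E12.5 replicate 2 (red points); the dotted line is the median of all genes. Thin filament genes lie furthest to the right of the muscle lists, at 0.82 and 0.99, and hepatocyte genes at 0.62 and 0.31, while the Hox list lies at −0.17 and −0.14.

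Genes outside every list make up 25 of the 63 rises with 15 arrays. Apart from Clec2d, those described here were picked with their values in view. The 28 rises outside the muscle and liver lists that were not called with 16 arrays had changes there of 0.26 to 2.001 and adjusted p of 0.055 to 0.375. Mustn1, a small nuclear protein of muscle and bone repair, had medians of 9.41 at E12.5 and 8.34 at E11.5 and rose by 1.09 ± 0.16 (adjusted p = 0.00658). Outside replicate 2, at 7.84, all E12.5 arrays lay above E11.5. Sytl2, a Rab27 effector in vesicle transport, had 8.43 at E12.5 and 7.22 at E11.5 and rose by 1.25 ± 0.19 (adjusted p = 0.0101). Arhgef6, an exchange factor for Rac and Cdc42, rose by 1.04 ± 0.17 (adjusted p = 0.0119), with 7 of 8 E11.5 arrays below the lower quartile, so that this rise is only a lower bound.

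Nfix, the nuclear factor that in mouse muscle takes part in the switch to the fetal programme, had medians of 10.25 at E12.5 and 9.26 at E11.5 and rose by 0.90 ± 0.18 with 15 arrays (adjusted p = 0.045). Vim, vimentin, the intermediate filament of mesenchyme and myoblasts, had 11.73 at E12.5 and 11.46 at E11.5 and rose by 0.31 ± 0.06 (adjusted p = 0.0443), the smallest rise of the 63. Tubb6, a beta-tubulin, rose by 0.74 ± 0.14 (adjusted p = 0.0265). These 3 calls were lost on leaving out 12, 12 and 5 of the 15 arrays. Pdha1, a subunit of pyruvate dehydrogenase, had medians of 9.87 at E12.5 and 9.29 at E11.5 and rose by 0.51 ± 0.10 (adjusted p = 0.0378), a call lost on leaving out 11.

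Clec2d, a ligand of a natural killer cell receptor, ran from 6.57 to 7.87 at E12.5, with a median of 7.03, and from 5.59 to 6.38 at E11.5, with a median of 6.04. The groups do not overlap, but all 8 E11.5 arrays lay below the lower quartile, so the rise is only a lower bound. It was 1.12 ± 0.19 with 16 arrays (adjusted p = 0.0328) and 1.07 ± 0.19 with 15 (adjusted p = 0.0225). The 16-array call was lost on leaving out 11 of the 16 arrays, with an adjusted p up to 0.0943, and the 15-array call without E12.5 replicate 7 (adjusted p = 0.0503). S100a8, a calcium-binding protein of neutrophils, ran from 5.69 to 8.62 at E12.5, against 5.47 to 6.23 at E11.5, and rose by 1.62 ± 0.31 with 15 arrays (adjusted p = 0.0342), again with all E11.5 arrays below the lower quartile. The third fall with 15 arrays, Mfsd4b3-ps, lay below the lower quartile in all 16 arrays.

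A few genes had no overlap between the stages with 16 arrays yet missed the threshold. Chd6, a chromatin remodeller, had medians of 9.24 at E12.5 and 9.62 at E11.5 (−0.44 ± 0.09, adjusted p = 0.0824). Marf1, a regulator of RNA stability in oocytes, had 9.66 at E12.5 and 9.96 at E11.5 (−0.29 ± 0.06, adjusted p = 0.0712). Aimp2, a scaffold of the aminoacyl-tRNA synthetase complex, had 9.77 at E12.5 and 9.26 at E11.5 (0.61 ± 0.12, adjusted p = 0.0712). In all, 18 genes lay higher and 7 lower in every E12.5 array than in any E11.5 array, 0.0930% and 0.0362% of those measured. Without E12.5 replicate 2, these numbers were 52 and 14, 0.269% and 0.0723%.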

How the data were processed

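RNA of laser-captured pleuroperitoneal folds was measured at E12.5 and E11.5, 8 arrays each. The authors deposited RMA values on a log2 scale for every probe set. The submitters' processing notes name R 2.9.2, RMA and Affymetrix Expression Console 1.1, without their roles. Whether all arrays were normalised together is not given in the sources used here. No source names the scale; log2 was inferred from values of 2.56 to 14.1 and array medians of 7.51 to 7.55 at E12.5 and 7.45 to 7.56 at E11.5. Arrays have no read depth, so their number limits the precision.

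The table has 24200 probe sets: 20760 with 1 gene symbol, 1140 with several and 2300 with none. The probe set with the highest mean was kept for each of 804 genes with several, which gave 19351 genes. The test was limma's moderated test (lmFit, eBayes, two-sided, version 3.58.1 under R 4.3.3), with Benjamini-Hochberg adjustment over all genes and a threshold of 0.05, without covariates, once with all 16 arrays and once without E12.5 replicate 2. The code was tested on simulated data. The comparison, its 44 gene lists (1070 entries, 48 without a match) and the alternatives were chosen with earlier results of these data known.

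Genes were named by a rule that gave 257: the largest rises and falls past the threshold in either fit, genes past it in a fit of all 24 arrays whose stages do not overlap, the 4 members of each list with the smallest p, and every member of the myogenic regulator, progenitor, fold mesenchyme, globin and sex-linked lists. Unnamed gene models, receptor families and small RNAs were left out. Other genes named, 31 of the 66 called with 15 arrays among them, were chosen after their values had been seen. Promoters came from RefSeq on GRCm38.p6. Alternatives were the fit of 24 arrays, leaving out each array or E12.5 replicates 2 and 4, replicate number as a block, other normalisations and centrings, filters on dim genes, the mean over probe sets, other limma options, an unequal-variance test, and the Y-linked or hepatocyte mean as a covariate. Python 3.11.15, pandas 2.3.3 and matplotlib 3.10.9 prepared tables and figures.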

Additional observations from a re-analysis of the deposited data

Results flagged for a closer look

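In 22 of 212 groups of 8 arrays checked, the highest or the lowest array stood further from its neighbour than Dixon's critical value for 8 arrays allows. Chance alone singles out about 1 in 20 groups. E12.5 replicate 2 accounts for most. It was high for the mean of the hepatocyte list, 10.04 against 8.22 in the next array, of red cells other than globins, 9.46 against 8.44, and of the cell cycle, 10.06 against 9.85. It was low for the mean of the Tgf-beta, activin and myostatin list, 8.34 against 8.57, and of the Fgf list, 7.50 against 7.87. Among genes it was low for Actc1 at 11.42, Tnnt2 at 10.55, Tnni1 at 8.59, Myh3 at 7.72, Meox2 at 7.16, Plagl1 at 10.70, Lrrn1 at 9.33 and Sncaip at 6.77, with the nearest arrays at 12.98, 11.80, 9.75, 10.03, 8.27, 11.44, 10.06 and 7.47. Each of these genes passed the threshold with 15 arrays and not with 16. The low place of replicate 2 in them therefore follows in part from how they were chosen.

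E11.5 replicate 1 was high for several muscle genes: Ttn at 10.62 against 9.22 in the next array, Myh3 at 10.33 against 8.56, Hrc at 9.88 against 8.22 and Actn2 at 8.86 against 7.69. It was also high for the mean of the thick filament list, 8.19 against 7.59. E12.5 replicate 3 was high for the mean of muscle energy metabolism, 9.44 against 8.32. At E11.5, replicate 2 was high for the mean of Schwann cell genes, 7.88 against 7.57, replicate 4 low for that of cardiomyocyte genes, 7.50 against 7.69, and replicate 3 high for Afp, 7.66 against 6.83.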

How the results depend on the processing

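The count of 9 genes past the threshold with 16 arrays moved most with the choice of arrays. It was 75 in the fit of all 24 arrays and 151 there without E12.5 replicate 2, 60 without E12.5 replicates 2 and 4, 3 to 66 with each array left out (66 without E12.5 replicate 2, 4 without E11.5 replicate 7 or E12.5 replicate 1 or 6, 3 without E11.5 replicate 8 or E12.5 replicate 8), 19 and 15 without the dimmest 25% or 50% of genes, 25 with array weights and 98 with the hepatocyte list's mean as a covariate. The unequal-variance test left 0, with 2500 genes at an unadjusted p under 0.05. The count of 66 with 15 arrays was 151 in the fit of 24 arrays without E12.5 replicate 2, which shares 60 of them, 1 by the unequal-variance test, 3 with the hepatocyte covariate and 39 to 74 with each array left out, the low values being 39 without E12.5 replicate 1 and 42 without replicate 8. Equal replicate numbers did not pair the arrays: deviations of same-numbered arrays from their stage means correlated at −0.279 to 0.042, and no array correlated best with its own number. With the replicate block, 5 genes passed with 16 arrays and 28 with 15, 26 of them among the 66. Quantile normalisation, either centring, the mean over probe sets and limma's trend and robust options gave 9 to 12 genes with 16 arrays and 55 to 71 with 15. With the Y-linked mean as a covariate 12 and 59 passed, and 47 of the 66 kept their call. No gene's change that had been called reversed under any of these settings. The number of arrays and the dim values at E11.5 limit what small changes could be called.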
